A study of Saccharomyces cerevisiae with 6 samples.

Results

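The mitochondrial inner membrane is closed to most charged metabolites, and proteins of the mitochondrial carrier family move them across it by exchange or cotransport. The genes described here are 10 such carriers of Saccharomyces cerevisiae: the ADP/ATP carriers AAC1, PET9 (also called AAC2) and AAC3, the dicarboxylate carrier DIC1, the citrate carrier CTP1, the oxodicarboxylate carriers ODC1 and ODC2, the oxaloacetate carrier OAC1, and the paralogs YMC1 and YMC2. ADP/ATP carriers exchange cytosolic ADP for ATP made in the matrix in respiring cells, and can run in the other direction when the matrix needs ATP. The other carriers connect the TCA cycle with gluconeogenesis, the glyoxylate cycle and amino acid synthesis in the cytosol. They were chosen by name among the 5113 genes of the deposited tables, and all 10 passed the filter on low counts that left 5011 genes for testing.

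RNA-seq libraries were made from poly(A) RNA of BY4741, a haploid laboratory strain auxotrophic for histidine, leucine, methionine and uracil, in 2 conditions with 3 cultures each. Cells of the Sucrose condition were taken directly from exponential growth at 30°C in synthetic medium with 2% sucrose, at an OD600 of 0.45. Cells of the NoSucrose condition grew in the same way, were collected on a filter and then spent 16 min in medium with 2% glycerol and 2% ethanol in place of sucrose. Filtration and transfer were applied in NoSucrose alone, so handling and carbon source cannot be told apart, and the comparison asks how these transcripts stood shortly after the loss of a fermentable sugar.

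The libraries held 25106494 to 33651822 estimated counts. In the unfiltered table LEU2, MET17 and URA3, which BY4741 lacks, stood at 0 counts in all 6 columns, whereas HIS3, of which the strain keeps a part, had between 1164 and 3414 counts. Sucrose replicate 1 stood apart from replicates 2 and 3 for genes of amino acid synthesis, and values without it are given beside each reported call that it ended. Levels below are CPM, the counts of a gene relative to the library's total scaled to 1e6 and adjusted by TMM, edgeR's factor for library composition. They are relative to all mRNA in a library, so less of a transcript per cell and more of the others cannot be told apart.

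The 3 ADP/ATP carrier genes are paralogs, and so are ODC1 with ODC2 and YMC1 with YMC2, which raises the question of whether reads of one copy could be counted for another. The coding sequences of PET9 and AAC3 were 78.9% identical over 924 aligned bases of the R64 genome, those of AAC1 and PET9 71.4%, those of YMC1 and YMC2 69.2%, and those of ODC1 and ODC2 66.5%. The longest run of identical bases in these alignments was 20, between PET9 and AAC3. No stretch of 50 bases, the length of one read, in any of the 10 coding sequences occurred in another coding sequence of the genome. Flanking sequence outside the coding region was not compared. The stretch of 30 bases with the most positions in common among the ADP/ATP carriers is shown to make the closeness of the copies visible. It runs in the reading frame and ends in the arginine and methionine codons known as the signature of ADP/ATP carriers, and capitals mark the 5 positions that differ between the genes (25 were shared by all).
PET9: ttGgaTacCgtTagaagaagAatgatgatg
AAC1: ttGgaTacGgtAagaagaagGatgatgatg
AAC3: ttAgaCacAgtGagaagaagAatgatgatg
These are bases 742 to 771 of the PET9 coding sequence (chrII:163227-163256, minus strand), 715 to 744 of AAC1 (chrXIII:387501-387530, minus strand) and 709 to 738 of AAC3 (chrII:416691-416720, plus strand).

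After sucrose withdrawal, AAC1 increased, OAC1 and YMC2 decreased, and 7 carriers did not pass the thresholds for a call, an FDR below 0.05 with a fold change above 2 in edgeR's quasi-likelihood test. The call rate over all tested genes was 18.7%, made up of 12.7% increased and 6.03% decreased. With 1 of 10 increased and 2 of 10 decreased, the carriers did not stand far from this background. At an FDR below 0.05 and any fold change, 3 carriers were higher in NoSucrose (AAC1, DIC1 and ODC1) and 6 were lower (PET9, AAC3, ODC2, OAC1, YMC1 and YMC2). By that measure 82.0% of all tested genes differed, 42.2% higher and 39.8% lower. CTP1 alone did not pass. The libraries of the conditions did not overlap for 9 of the 10 carriers, against 84.8% of all tested genes (43.7% higher and 41.1% lower in NoSucrose). The median log2 fold change of the carriers was -0.54, and that of all tested genes was 0.03.

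**Figure D1:**
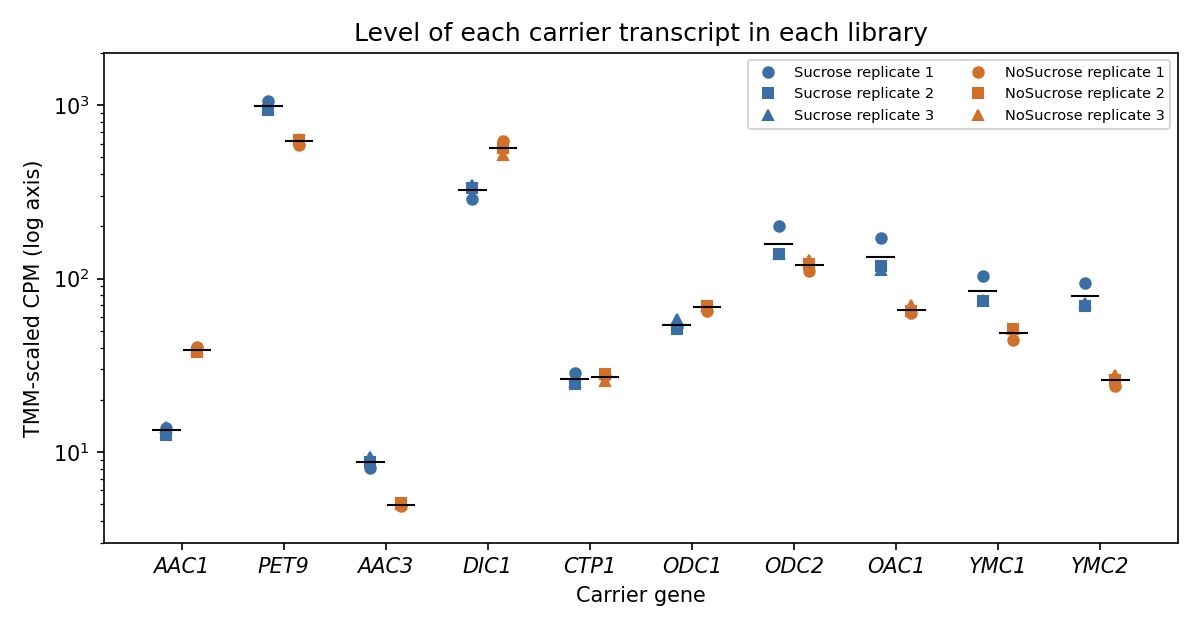
Level of each carrier transcript in each library, as TMM-scaled CPM on a log axis (blue, Sucrose; orange, NoSucrose; the symbol gives the replicate and black lines the mean of 3 libraries). AAC1 and DIC1 lie higher in NoSucrose, and YMC2 and OAC1 lie lower. Sucrose replicate 1 (blue circles) is the highest library for ODC2, OAC1, YMC1 and YMC2, and by a smaller distance on this axis for PET9 and CTP1.

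PET9 (YBL030C, chrII:163041-163997 in R64, minus strand, 1 coding exon) encodes the main ADP/ATP carrier, without which yeast cannot grow by respiration. Its level was 1060, 943 and 950.4 CPM in Sucrose replicates 1, 2 and 3, and 592, 630, and 640 CPM in NoSucrose replicates 1, 2 and 3. All NoSucrose libraries thus lay below all Sucrose libraries. The means were 985 ± 65.3 and 621 ± 25.03 CPM (SD, n = 3 each), which corresponds to a log2 fold change of -0.67 ± 0.06 (SE, edgeR adjusted p = 2.22e-05), short of a 2-fold change.

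AAC1 (YMR056C, chrXIII:387315-388244, minus strand, 1 coding exon), a minor isoform of aerobic cells, went the other way. Sucrose replicates 1, 2 and 3 had 13.8, 12.5 and 13.9 CPM, and NoSucrose replicates 1, 2 and 3 had 40.03, 37.6 and 39.2 CPM. The conditions were far apart in relation to the spread of the replicates, with means of 13.4 ± 0.791 and 38.9 ± 1.23 CPM (SD, n = 3 each). The log2 fold change was 1.54 ± 0.06 (SE, edgeR adjusted p = 4.33e-07), which is 2.91-fold, and it stayed between 1.49 and 1.57 with each library left out in turn.

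AAC3 (YBR085W, chrII:415983-416906, plus strand, 1 coding exon) is the isoform of cells grown without oxygen and had the lowest level of the 10 carriers. It stood at 8.10, 8.79 and 9.29 CPM in the Sucrose replicates and at 4.85, 5.04 and 5.02 CPM in the NoSucrose replicates, from 132 to 285 counts in a library. The NoSucrose libraries again lay below all Sucrose libraries. The log2 fold change was -0.81 ± 0.10 (SE, edgeR adjusted p = 0.000124), and AAC3 was not called.

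Summed over the 3 genes, the ADP/ATP carriers had 1082, 965 and 974 CPM in the Sucrose replicates and 637, 672 and 684 CPM in the NoSucrose replicates. The mean went from 1007 ± 65.2 to 664 ± 24.4 CPM (SD, n = 3 each), a difference of -342 CPM (two-sided exact permutation p = 0.1, and no smaller p is possible with 3 against 3). PET9 provided nearly all of these transcripts in either condition. Per kilobase of coding sequence, AAC1 made up 1.31%, 1.33% and 1.47% of the ADP/ATP carrier transcripts in the Sucrose replicates, and 6.45%, 5.75% and 5.89% in the NoSucrose replicates. The share of PET9 went from 97.7% ± 0.184 to 93.2% ± 0.383 (SD, n = 3 each), and that of AAC3 was 0.902% ± 0.112 and 0.774% ± 0.0140.

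Within a library the ratio of 2 paralogs does not depend on how the library is scaled. The ratio of PET9 to AAC1 per coding length was 74.6, 73.4 and 66.4 in the Sucrose replicates and 14.4, 16.3 and 15.9 in the NoSucrose replicates. On the log2 scale this was a difference of -2.20 (two-sided exact permutation p = 0.1, adjusted p = 0.133 over the 4 ratios compared), with no overlap of the conditions. The ratio of PET9 to AAC3 overlapped between the conditions, with 126, 104 and 98.8 in Sucrose and 117.95, 121 and 123 in NoSucrose. Its log2 difference was 0.15 (two-sided exact permutation p = 0.4, adjusted p = 0.4), and lay between 0.08 and 0.25 with each library left out.

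**Figure D2:**
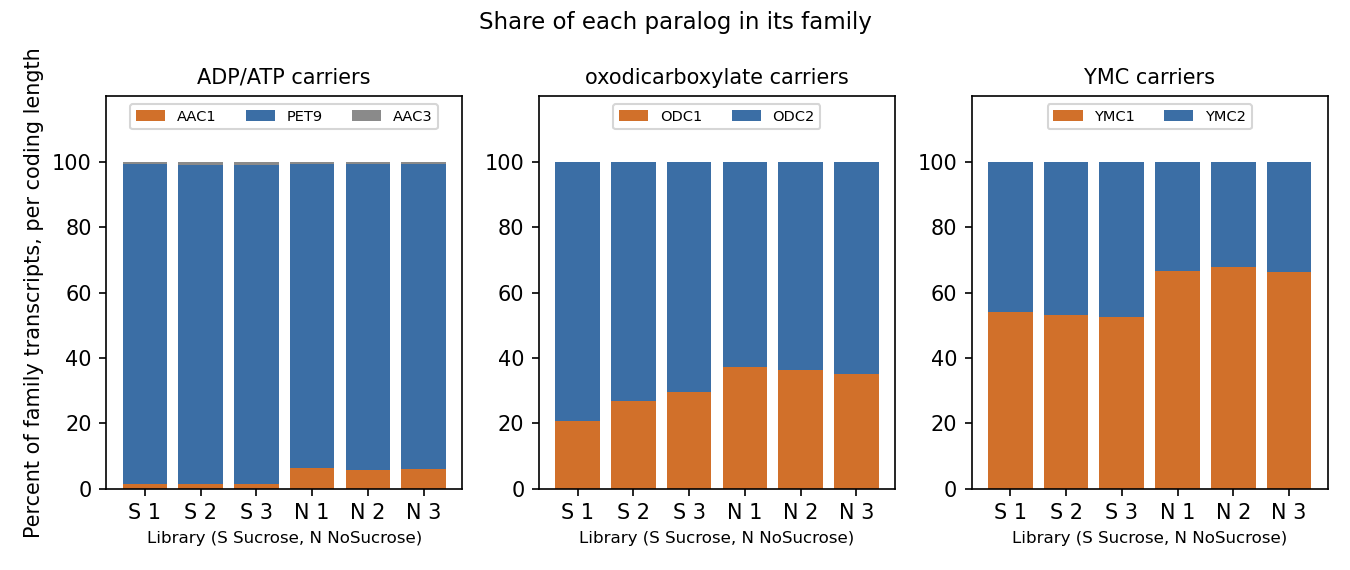
Share of each paralog among the transcripts of its family, in percent of counts per coding length, for each library (S, Sucrose; N, NoSucrose; the number is the replicate). AAC1 (orange, left) takes 1.31% to 1.47% in Sucrose and 5.75% to 6.45% in NoSucrose, and ODC1 and YMC1 (orange, middle and right) take larger shares in all NoSucrose libraries than in any Sucrose library.

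DIC1 (YLR348C, chrXII:826977-827873, minus strand, 1 coding exon) exchanges malate or succinate for phosphate and is needed for growth on carbon sources such as ethanol and acetate. Its transcript was at 288, 334 and 345 CPM in Sucrose replicates 1, 2 and 3 and at 619, 566 and 513 CPM in NoSucrose replicates 1, 2 and 3. All NoSucrose libraries lay above all Sucrose libraries. The log2 fold change was 0.81 ± 0.09 (SE, edgeR adjusted p = 7.14e-05), 1.75-fold and below the threshold for a call. As DIC1 was higher and PET9 lower, the most abundant carriers of the set came to similar levels: DIC1 per coding length was 0.290, 0.378 and 0.388 of PET9 in the Sucrose replicates, and 1.11, 0.958 and 0.855 of it in the NoSucrose replicates. This ratio was chosen after its values were seen and was not tested.

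CTP1 (YBR291C, chrII:783673-784572, minus strand), the carrier of citrate, showed little difference. It had 28.5, 24.8 and 25.4 CPM in the Sucrose replicates and 27.3, 28.1 and 25.8 CPM in the NoSucrose replicates, and the conditions overlapped. The log2 fold change was 0.05, with a 95% interval from -0.12 to 0.21 by the fit's standard error (edgeR adjusted p = 0.55).

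ODC1 and ODC2 carry 2-oxoglutarate and 2-oxoadipate, the latter an intermediate of lysine synthesis, and they differed in opposite directions. ODC1 (YPL134C, chrXVI:298571-299503, minus strand) had 52.9, 51.3 and 58.4 CPM in the Sucrose replicates and 65.4, 69.7 and 69.6 CPM in the NoSucrose replicates. Its log2 fold change was 0.33 ± 0.06 (SE, edgeR adjusted p = 0.000764). ODC2 (YOR222W, chrXV:758330-759253, plus strand) had 201, 138 and 138 CPM in the Sucrose replicates, against 110, 121 and 128 CPM in the NoSucrose replicates. Most of the distance between its conditions lay in Sucrose replicate 1. The log2 fold change of ODC2 was -0.41 ± 0.15 (SE, edgeR adjusted p = 0.0334) and -0.20 without that library (adjusted p = 0.0259). The difference did not pass without NoSucrose replicate 1 (adjusted p = 0.0966) or 2 (adjusted p = 0.0795), or when only library sizes were used for scaling (adjusted p = 0.098), in the same edgeR test.

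ODC2 was the more abundant copy in every library. The ratio of ODC1 to ODC2 per coding length was 0.260, 0.369 and 0.420 in the Sucrose replicates and 0.589, 0.568 and 0.539 in the NoSucrose replicates. The log2 difference was 0.72, with no overlap of the conditions (two-sided exact permutation p = 0.1, adjusted p = 0.133 over the 4 ratios). It was 0.52 without Sucrose replicate 1. The Sucrose replicates alone ran from -1.94 to -1.25 on the log2 scale, a spread of similar size.

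OAC1 (YKL120W, chrXI:217344-218318, plus strand) carries oxaloacetate and sulfate and also isopropylmalate, by which it serves leucine synthesis. Sucrose replicates 1, 2 and 3 had 171, 118 and 112 CPM, and NoSucrose replicates 1, 2 and 3 had 62.9, 65.3 and 70.1 CPM. The NoSucrose libraries lay close together and below all Sucrose libraries. The log2 fold change of -1.01 ± 0.15 (SE, edgeR adjusted p = 0.000397) sat at the 2-fold limit, and OAC1 was no longer called without Sucrose replicate 1 (-0.80, adjusted p = 2.10e-05) or without NoSucrose replicate 1 (-0.98, adjusted p = 0.00214). The call was also lost when libraries were scaled by their size alone (-0.90) or by the upper quartile (-0.997). The nearest carriers on the other side of that limit were AAC3 and DIC1, at -0.81 and 0.81.

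YMC1 (YPR058W, chrXVI:673751-674674, plus strand) and YMC2 (YBR104W, chrII:449667-450656, plus strand) are a pair of paralogs linked to glutamate synthesis and the use of oleate. YMC2 had 94.03, 69.8 and 72.8 CPM in the Sucrose replicates and 23.98, 26.02 and 27.7 CPM in the NoSucrose replicates. This was the largest decrease among the 10 carriers, a log2 fold change of -1.60 ± 0.12 (SE, edgeR adjusted p = 7.24e-06), and it stayed called without Sucrose replicate 1, at -1.46. YMC1 had 104, 74.1 and 75.3 CPM in the Sucrose replicates and 44.4, 51.1 and 50.95 CPM in the NoSucrose replicates. Its log2 fold change was -0.79 ± 0.13 (SE, edgeR adjusted p = 0.000752), below the threshold for a call, and -0.61 without Sucrose replicate 1. Thus the copies were near parity in sucrose medium and unequal afterwards, with a ratio of YMC1 to YMC2 per coding length of 1.18, 1.14 and 1.11 in the Sucrose replicates and 1.98, 2.10 and 1.97 in the NoSucrose replicates. The log2 difference was 0.82 (two-sided exact permutation p = 0.1, adjusted p = 0.133 over the 4 ratios).

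**Figure D3:**
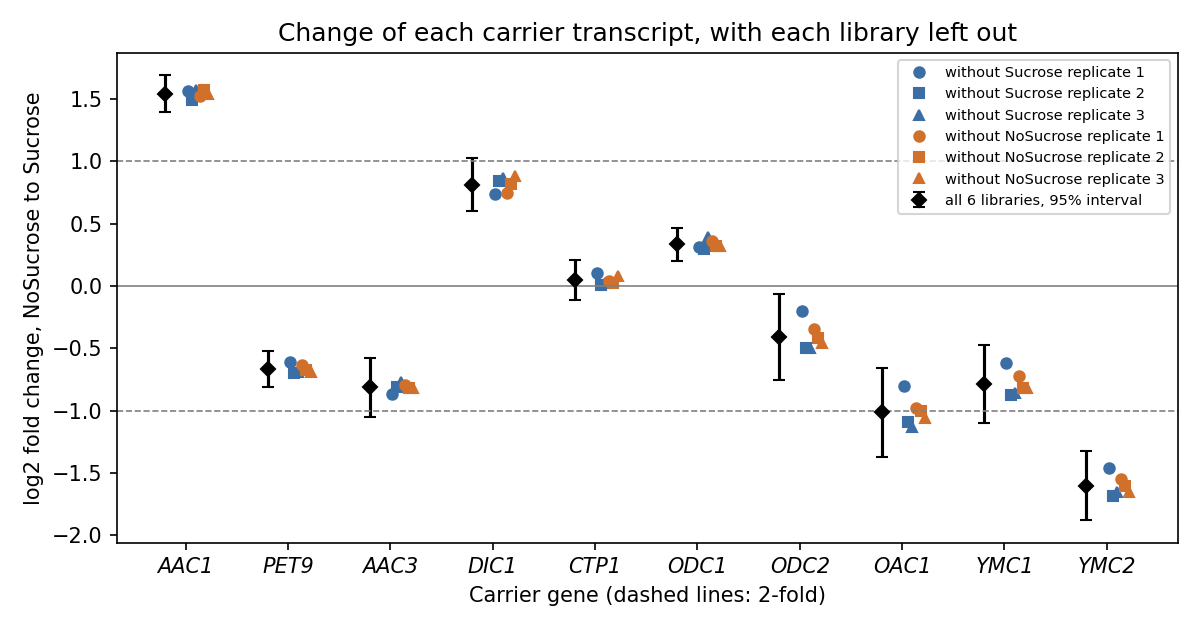
Log2 fold change of each carrier from Sucrose to NoSucrose (black diamonds, all 6 libraries with a 95% interval; coloured symbols, the same fit with the named library left out; dashed lines, 2-fold). AAC1 stays above the upper line and YMC2 below the lower one in all fits, whereas OAC1 lies at -1.01 with all libraries and at -0.80 without Sucrose replicate 1.

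Per kilobase of coding sequence, the order of the levels in sucrose medium was PET9, DIC1, ODC2, OAC1, YMC1, YMC2, ODC1, CTP1, AAC1 and AAC3, from 1029 ± 68.2 to 9.45 ± 0.644 CPM per kilobase (SD, n = 3 each). In this order the libraries of ODC2 overlapped those of OAC1, and the libraries of YMC1 overlapped those of YMC2. After withdrawal it was PET9, DIC1, ODC2, ODC1, OAC1, YMC1, AAC1, CTP1, YMC2 and AAC3, from 648 ± 26.2 to 5.38 ± 0.116 CPM per kilobase. Here PET9 and DIC1 (631 ± 59.0 CPM per kilobase) overlapped, as did ODC1 and OAC1.

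The spread among the Sucrose cultures differed between the carriers. The coefficient of variation was 23.0% for ODC2, 24.3% for OAC1, 19.9% for YMC1 and 16.7% for YMC2, and between 5.90% and 9.47% for the other 6. In all 4 of the more variable genes Sucrose replicate 1 was the highest library, by 0.55, 0.57, 0.47 and 0.40 on the log2 scale over the mean of replicates 2 and 3, in the same order. It was also the highest library for PET9 and CTP1, by 0.16 and 0.18 on that scale. Transcripts of amino acid synthesis moved with the 4 more variable genes. Of the 10 tested genes of leucine synthesis 7 were over 1.2-fold higher in Sucrose replicate 1 than in the mean of the other Sucrose libraries, and so were 7 of the 11 genes of lysine synthesis, against 3.95% of all tested genes. HIS3 had 141 CPM in Sucrose replicate 1 and 86.1 and 85.6 CPM in replicates 2 and 3. The part of this difference between cultures in the decrease of OAC1 and YMC2 was not tested, and their values without that library are those given above.

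Gcn4, the activator of amino acid synthesis genes, binds TGACTC and its extensions. In the 500 bases before the start codon these 6 letters, on either strand, were found in 5 of the 10 carriers, and in 12.7% of the 6006 nuclear genes of R64. They were also found in 9 of 25 further members of the carrier family, so the motif is not particular to these 10. The sites are shown because the carriers that hold them include the 4 variable ones. Each is printed on the strand of its gene, with the match in capitals (GAGTCA is the motif on the other strand).
OAC1: tattccagttgcGAGTCAgggtctgccgat
ODC2: tcttgttgttgaTGACTCagtgcagtcgcg
YMC1, distal: atacacccgaaaGAGTCAcggcagaatata
YMC1, proximal: tattactttgatTGACTCattcttacattt
YMC2: aggaatctcgaaGAGTCAtcactttgaaga
CTP1: agtcttactgaaGAGTCAagaatatggaag
The capitals begin at position -332 in OAC1, -159 in ODC2, -478 and -196 in YMC1, -210 in YMC2 and -205 in CTP1, where -1 is the base before the start codon. The windows are chrXI:217000-217029 for OAC1, chrXV:758159-758188 for ODC2, chrXVI:673261-673290 and chrXVI:673543-673572 for YMC1, chrII:449445-449474 for YMC2 and chrII:784760-784789, minus strand, for CTP1.

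The 5 carriers with TGACTC had log2 fold changes from -1.60 to 0.05, with a median of -0.79, and those without it had log2 fold changes from -0.81 to 1.54, with a median of 0.33. Over all tested genes the motif went with no such distance, as the median was 0.00 for the 649 genes with it and 0.03 for the 4322 genes without it. The ratio of Sucrose replicate 1 to the mean of replicates 2 and 3 likewise hardly differed over all tested genes, with a median of 0.03 on the log2 scale for those with the motif and -0.02 for those without it. Of the genes with the motif 8.47% were decreased and 13.9% increased, and of those without it 5.69% and 12.5%. A match of 6 letters is a description and shows no binding.

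**Figure D4:**
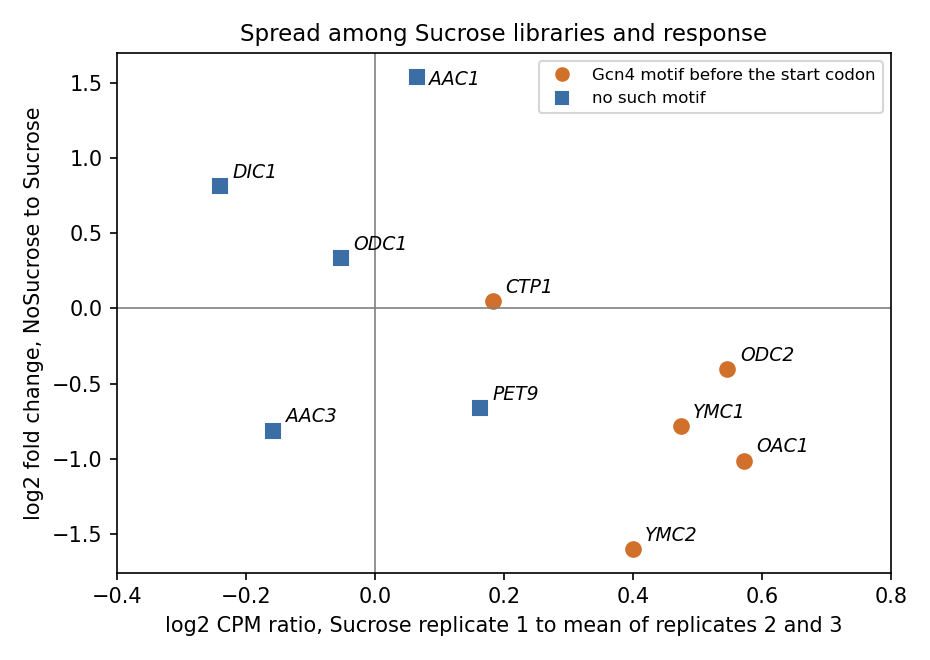
For each carrier, the log2 ratio of its CPM in Sucrose replicate 1 to the mean of replicates 2 and 3 (horizontal) and its log2 fold change from Sucrose to NoSucrose (vertical), with orange circles for the genes that hold TGACTC in the 500 bases before the start codon and blue squares for the others. The orange genes lie between 0.18 and 0.57 on the horizontal axis and the blue ones between -0.24 and 0.16, where the medians of all tested genes with and without the motif are 0.03 and -0.02. The axes share Sucrose replicate 1, so a gene placed to the right is also drawn downward.

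Other motifs were searched in the same windows on both strands. CCAAT, the core bound by the Hap2/3/4/5 activator of respiratory genes, was present in 7 of the 10 carriers and in 62.4% of all genes, with 2 sites in AAC1, 3 in PET9 and 1 in AAC3. AGGGG, the stress element of Msn2 and Msn4, was present in PET9 and YMC2 and in 34.1% of all genes. ATTGTT, part of the site of the hypoxic repressor Rox1, was found in AAC3, CTP1 and YMC2 and in 48.9% of all genes. The palindrome of the leucine regulator Leu3, CCGG repeated after a gap of 2 bases, was not found in these windows of the 10 carriers and occurred in 0.266% of all genes. The core of the carbon source response element bound by Cat8 and Sip4, CC and CCG separated by 6 bases, occurred in 20.8% of all genes and in AAC3, ODC1 and DIC1, with 3 matches in DIC1.

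The rest of the carrier family was counted in the same way. Of 25 further members listed, 23 were tested, 4 increased and 2 decreased, where 12.7% of all tested genes increased and 6.03% decreased. At an FDR below 0.05 and any fold change 14 were higher and 7 lower, against 42.2% and 39.8% of all tested genes. The median log2 fold change of these members was 0.22. The increases were those of CRC1 (4.18), the carnitine carrier that serves acetyl transfer, SFC1 (3.57), which exchanges succinate for fumarate and links the glyoxylate cycle with gluconeogenesis, PIC2 (3.56), a carrier of phosphate and copper, and LEU5 (1.90), needed for coenzyme A in the matrix. The largest of them, CRC1, went from 5.00 ± 0.574 to 91.2 ± 11.7 CPM (SD, n = 3 each, edgeR adjusted p = 1.30e-07). SFC1 rested on only 17, 19 and 17 counts in the Sucrose replicates, and went from 0.621 ± 0.0711 to 7.34 ± 1.11 CPM (SD, n = 3 each). The decreases were those of YHM2 (-1.07), which exchanges citrate for oxoglutarate, and GGC1 (-1.19), the GTP/GDP carrier. GGC1 stood at 242 CPM in Sucrose replicate 1 and at 102 and 109.98 CPM in replicates 2 and 3, and its log2 fold change was -0.69 and no longer called without replicate 1. MIR1, the main phosphate carrier, whose substrate is used together with ADP by the ATP synthase, had a log2 fold change of -0.63, close to the -0.67 of PET9.

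**Figure D5:**
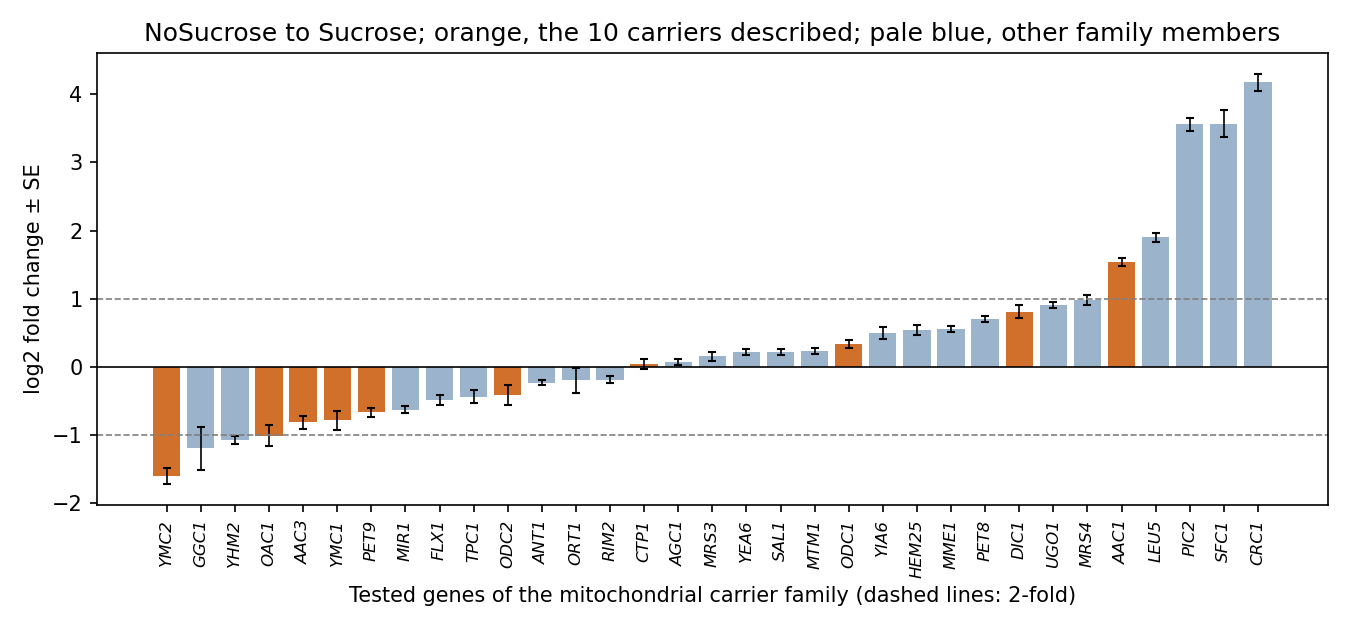
Log2 fold change from Sucrose to NoSucrose of the 33 tested genes of the mitochondrial carrier family, in order of size, with bars for the standard error and dashed lines at 2-fold (orange, the 10 carriers described; pale blue, other members). YMC2 is the lowest at -1.60, and AAC1 at 1.54 is the highest of the 10, below LEU5, PIC2, SFC1 and CRC1.

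The genes that supply or use the carried metabolites were counted from fixed lists. Of 17 genes of the ATP synthase and its inhibitors, which make the ATP exchanged by the ADP/ATP carriers, 2 were called, both increased. Over all tested genes 12.7% increased. At an FDR below 0.05 and any fold change 9 were lower (9 also at an unadjusted p below 0.05, edgeR), 3 were higher and 5 did not pass. By that measure 39.8% of all tested genes were lower and 42.2% higher. The 2 called genes were STF1 (1.54) and STF2 (3.26), which belong to the inhibitor proteins or their helpers and not to the enzyme itself. The list had a median of -0.13. Among 5 genes of the porins and the pyruvate carrier, MPC3, a pyruvate carrier subunit of respiring cells, increased from 15.7 ± 3.73 to 710 ± 50.7 CPM (SD, n = 3 each), with a log2 fold change of 5.49 (edgeR adjusted p = 1.78e-07).

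Of 28 enzymes that turn over malate, citrate, oxoglutarate and succinate, 9 increased, against 12.7% of all tested genes. The median log2 fold change over the list was 0.62. The 4 largest increases were those of CIT3 (5.18), a mitochondrial citrate synthase, IDP3 (4.21), a peroxisomal isocitrate dehydrogenase, ICL1 (3.23), isocitrate lyase of the glyoxylate cycle, and CIT2 (2.97), its citrate synthase. PCK1, MLS1, SDH1, IDP2 and CIT1 also increased, by 1.13 to 1.69. Most genes of the amino acid pathways that OAC1 and ODC2 serve were lower. In leucine synthesis 3 of 10 tested genes were called, all decreased: ILV5 (-1.83), LEU9 (-1.08) and BAT1 (-1.04). Over all tested genes 6.03% decreased. ILV5 stayed called without Sucrose replicate 1 (-1.76), whereas LEU9 (-0.96) and BAT1 (-0.87) did not, and BAT1 was also lost without NoSucrose replicate 1 (-0.97). At an FDR below 0.05 and any fold change 8 of the 10 were lower and 1 higher, and the median was -0.68. By that measure 39.8% of all tested genes were lower and 42.2% higher. In lysine synthesis LYS4 (-1.06) decreased and ARO9 (1.84), an aminotransferase also used to break down aromatic amino acids, increased, and the median of the 11 genes was -0.69. LYS4 was no longer called without Sucrose replicate 1 (-0.99). These medians compare with 0.03 over all tested genes. They include Sucrose replicate 1, which stood over 1.2-fold higher in most genes of both lists, and were not computed without it.

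AAC3 was set beside genes known to respond to oxygen. Of 15 tested, 2 were called, both increased: COX5B (1.40) and CYC7 (4.14), the isoforms of a cytochrome oxidase subunit and of cytochrome c used in hypoxia. At an FDR below 0.05 and any fold change 5 were higher and 8 lower (8 also at an unadjusted p below 0.05, edgeR). Of all tested genes 42.2% were higher and 39.8% lower by that measure, and 12.7% were called as increased. The list mixes hypoxic and aerobic isoforms, so its counts do not describe hypoxic genes alone. ANB1 had a log2 fold change of 0.32 (edgeR adjusted p = 0.227) and HEM13 of -0.57. AAC3, at -0.81, lay below these 4 genes and above OLE1 (-0.87), the lowest of the 15.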

How the data were processed

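Poly(A) RNA of 3 Sucrose and 3 NoSucrose cultures was sequenced (paired reads of 50 bases). The authors trimmed reads with Flexbar, quantified them with Salmon against the R64-1-1 transcriptome and deposited expected counts (estimated counts, not normalized) before and after a low-count filter. In the filtered table the names are displaced against the values, so each of its 5028 rows took the name of the gene whose 6 values, in any order, were identical in the unfiltered table (5028 matched 1 gene). Its own headers gave the samples and held for 1999 of 1999 genes in a copy of the authors' table (to 6 significant digits). The unfiltered table's headers were not used. The labels give SC as the base medium and the methods SC without tryptophan.

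Counts were rounded, filtered (filterByExpr, min.count 15, min.total.count 20) and tested over 5011 genes with edgeR 4.0.16 (R 4.3.3, TMM, glmQLFTest, condition only, Benjamini-Hochberg). Calls needed an adjusted p below 0.05 and a fold change above 2. The standard error (SE) of a log2 fold change is its size divided by the square root of F. Paralog ratios and sums were compared by exact permutation tests. P-values measure the spread between 3 cultures a condition. The procedure was tested on simulated data with changes well above the limit of 2 or none. Changes near that limit, such as that of OAC1, were not covered. Alternatives were other scalings, no filter, DESeq2 1.42.0, a replicate block and leaving out each library. Coordinates, coding lengths and sequences are from RefSeq R64. The members and gene lists were chosen with earlier results of these data known. Named genes are the 10 carriers, called genes of the carrier family, up to 4 called genes each way in each other list, the genes nearest in pattern to the ADP/ATP carriers, and others named after their values were seen (MIR1, ANB1, HEM13, OLE1 and the remaining called enzymes). A result for a listed enzyme is not reported here.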

Additional observations from a re-analysis of the deposited data

How the results depend on the processing

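The call of AAC1 as increased and of YMC2 as decreased held under all alternatives run: 3 other scalings, no filter, DESeq2, the replicate block and each library left out. The directions of all 10 carriers also held in each of them, and 115 of 120 values for single carriers stayed on their side of the call thresholds. The other 5 were those of OAC1, which was not called with library size alone (-0.90), upper quartile scaling (-0.997), the replicate block (-0.99) or without Sucrose replicate 1 or NoSucrose replicate 1. The number of carriers called was therefore 2 or 3. At an adjusted p below 0.05 and any fold change it was 9, against 4107 of all genes and 94 of the listed genes, for which 937 and 26 were called with the fold change threshold. ODC2 left that group of 9 with library size alone (adjusted p = 0.098, edgeR), with the replicate block (0.0668) and without NoSucrose replicate 1 or 2 (0.0966 and 0.0795), and its adjusted p was between 0.00398 and 0.098 over all alternatives. Library size alone moved the median over all genes from a log2 fold change of 0.03 to 0.14 and the split of calls from 635 increased and 302 decreased to 733 and 201, and YHM2 (-0.95), LEU9 (-0.97), BAT1 (-0.92) and LYS4 (-0.94) were then not called. Under that scaling 24 listed genes were increased and 3 decreased, against 19 and 7, and without Sucrose replicate 1 2 were decreased.

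Same-numbered libraries did not deviate together: their deviations from their condition's mean correlated at -0.14, 0.00 and 0.04 across genes for replicates 1, 2 and 3. Libraries of different number correlated at -0.33 to 0.27, so these values cannot tell whether the cultures were grown as pairs. With the replicate block 933 genes and 2 carriers were called. With each library left out, the summed ADP/ATP carriers differed by -363 to -305 CPM. AAC3 rested on 132 to 285 counts per library. With 3 cultures a condition, smaller differences such as that of CTP1 were not detectable.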

Other observations

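The tested genes nearest in pattern to each ADP/ATP carrier were taken by the root mean square difference of log2 CPM, centred on each gene's mean over the 6 libraries. For PET9 they were LYS12 (0.013), FKH1 (0.019) and PRO2 (0.022), of which LYS12 and PRO2 encode enzymes of lysine and proline synthesis and FKH1 a forkhead transcription factor. For AAC3 they were MNN9 (0.026), SCW10 (0.032) and DUT1 (0.032). For AAC1 they were MUD1 (0.046), PRX1 (0.053) and RTK1 (0.053), of which PRX1 encodes a mitochondrial peroxiredoxin. With 2 conditions of 3 libraries, this likeness reflects mainly the size of the change, and each of these genes had a log2 fold change within 0.05 of its carrier's.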
